A study of Drosophila melanogaster with 36 samples.

Results

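Glutathione S-transferases (GSTs) were followed in the indirect flight muscle (IFM) of female *Drosophila melanogaster*. The members are the rows of the count table whose gene name begins with Gst, followed by the letter of a cytosolic class (D delta, E epsilon, O omega, S sigma, T theta or Z zeta) and a number. This rule took 35 of the 16727 genes in the table, 11 of the delta, 14 of the epsilon, 3 of the omega, 1 of the sigma, 4 of the theta and 2 of the zeta class. Of these, 30 had enough counts to be tested among 9996 genes, and *GstD4*, *GstD6*, *GstD11*, *GstE4* and *GstE14* did not.

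GSTs join the tripeptide glutathione to reactive or foreign compounds, and some also reduce peroxides or isomerise metabolites. The delta and epsilon classes are insect classes best known for the handling of insecticides and plant toxins, and many of their genes stand in tandem arrays. The sigma enzyme is abundant in insect flight muscle and acts on products of lipid peroxidation, the omega enzymes have thiol-transfer activity, and the zeta class includes the maleylacetoacetate isomerase of tyrosine breakdown.

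Flies of 6 groups were compared at 3 weeks of age. HFD-ALF and HFD-TRF flies were wild-type Canton-S on a high-fat diet made with coconut oil, *Sk2*-ALF and *Sk2*-TRF flies carried a mutation of *Sphingosine kinase 2* and ate the normal diet, and WT-ALF and WT-TRF flies were Canton-S on the normal diet. Under ad libitum feeding (ALF) food was present day and night, and under time-restricted feeding (TRF) only in the 12 h of light, with agar given in the 12 h of darkness. Each library came from the IFM of 10 pooled females at 1 of 6 times, ZT3 to ZT23 (hours after lights on), so a group holds 1 library per time and the libraries stand in as its replicates. The labels give no strain for the *Sk2* flies, which came from a stock centre, so the mutation and its genetic background cannot be told apart. *Sk2* itself was at 1.52 to 4.45 CPM (counts scaled to the size of each library) in *Sk2*-ALF and 1.11 to 5.48 in *Sk2*-TRF libraries, against 4.94 to 9.76 CPM in WT-TRF and 5.57 to 9.12 in WT-ALF libraries.

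The 34 libraries used held 3329519 to 30682673 counts, with a median of 12765728.5, and GSTs took 0.1534 to 0.2596% of them. By group they held 5432971 to 10132861 counts in WT-ALF, 3329519 to 9911737 in WT-TRF and 7647675 to 18777695 in HFD-ALF. HFD-TRF libraries held 12017403 to 30682673, *Sk2*-ALF 10870706 to 18944737 and *Sk2*-TRF 17845999 to 26410549. Every HFD-TRF and *Sk2* library was deeper than every WT library, so depth and group cannot be told apart there. The study had left out WT-TRF ZT11 and *Sk2*-ALF ZT23 as outliers, which leaves 5 libraries in WT-TRF and *Sk2*-ALF and 6 in each other group. All 8 flight muscle markers were detected in every group, with summed levels of 10300 to 32200 CPM, and markers of fat body summed to 11600 to 70800, of midgut to 151 to 9300 and of neurons to 68.6 to 652 CPM. In every WT and *Sk2* library the fat body sum was above the flight muscle sum, and in HFD libraries it was above or below. The medians were 31800 against 24900 CPM in WT-ALF, 38000 against 15400 in *Sk2*-TRF and 21600 against 21600 in HFD-ALF. The part of fat body RNA in the GST levels was not tested. These are bulk libraries, in which fewer cells of a type and less RNA per cell cannot be told apart.

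By position the family is mostly clustered (build dm6). The 11 delta genes lie within 20849 bases of chromosome 3R, from 12364776 to 12385624. *GstE1* to *GstE10* lie within 13198 bases of 2R, from 18396638 to 18409835, while *GstE11* to *GstE14* stand elsewhere on 2R. The 3 omega genes share 3L from 8518885 to 8524866, *GstT1* and *GstT2* adjoin each other on 2R from 9605988 to 9608350, the 2 zeta genes adjoin on 3R, *GstS1* starts at 17093246 on 2R, and *GstT3* and *GstT4* are on X. None of the 35 shares exon bases with another gene on its own strand, and 7 share them with a gene on the other strand, which strand-specific counting keeps apart. Only uniquely aligned reads were counted, so reads common to similar members of an array were lost and their levels are less certain.

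Levels were compared between genes as RPKM (CPM per kilobase of exon). *GstD1*, the enzyme best known for DDT breakdown, was the highest at 427 ± 178 RPKM (SD, n = 34 libraries), followed by *GstE12* at 272 ± 51.9 and *GstS1* at 157 ± 65.5 RPKM. *GstO3*, *GstE9* and *GstO2* came next at 141 ± 37.8, 132 ± 39.2 and 127 ± 58.2 RPKM, within each other's spread. *GstT4* led the theta class at 62.2 ± 36.5 and *GstZ1* the zeta class at 17.1 ± 4.80 RPKM.

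By class, the epsilon genes summed to 725 ± 106 RPKM and gave 39.4% of the family's total. The delta genes gave 26.9%, nearly all of it from *GstD1* and *GstD9*, and the omega genes 15.1%. The theta, sigma and zeta classes gave 8.89, 8.56 and 1.15%. At the low end, *GstE14*, whose product is needed for ecdysteroid synthesis, had at most 10 counts in a library, and *GstE4* and *GstD11* at most 5 and 4. *GstD4* reached 8 counts, and *GstD6* reached 26, in HFD-ALF ZT3. The plot of levels shows steps of several orders of magnitude between genes of the same array.

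**Figure D1:**
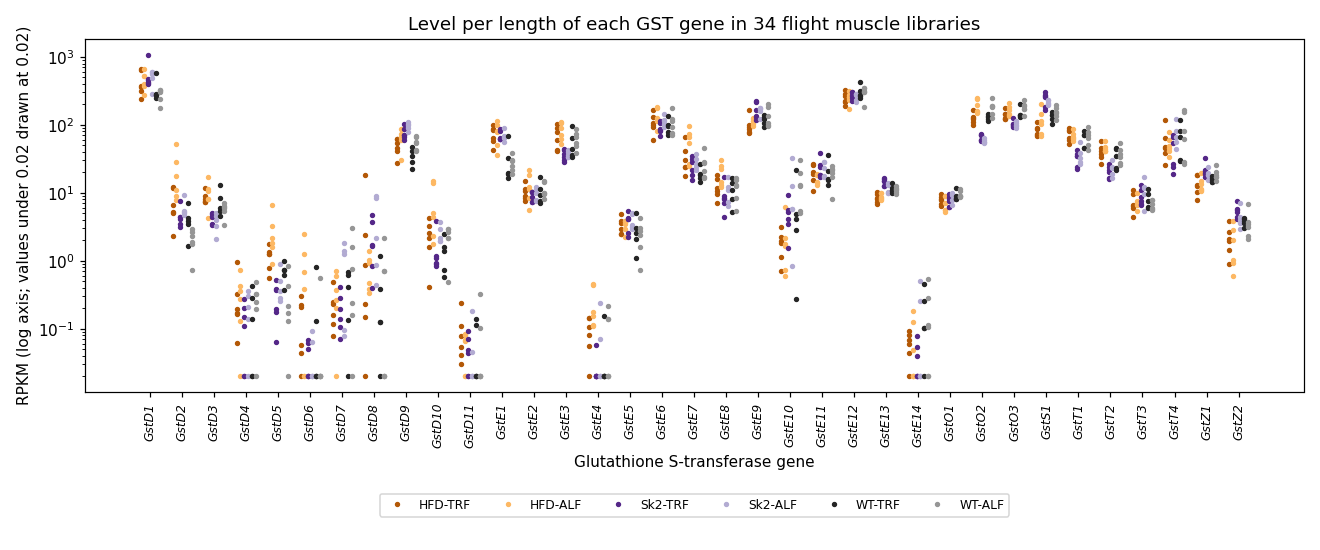
RPKM (log axis, values under 0.02 drawn at 0.02) of each of the 35 GST genes, 1 point per library, in the 34 libraries of HFD-TRF, HFD-ALF, *Sk2*-TRF, *Sk2*-ALF, WT-TRF and WT-ALF flies. *GstD1* and *GstE12* are the highest by mean, and *GstD4*, *GstD6*, *GstD11*, *GstE4* and *GstE14* are the lowest.

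The first question was how the high-fat diet bears on these genes under unrestricted feeding. In HFD-ALF against WT-ALF, 9 of 30 tested GSTs were called at an adjusted p under 0.05 (edgeR's quasi-likelihood test with Benjamini-Hochberg adjustment over all genes): 6 were higher, against a background of 9.42% of all genes higher, and 3 were lower, against 7.17%. The higher ones were 4 delta genes, *GstD2*, *GstD3*, *GstD5* and *GstD10*, with *GstE1* and *GstE7*. The lower ones were *GstE10*, *GstE13* and *GstO1*. The median log2 fold change was 0.75 over the 8 delta genes tested and 0.25 over the 12 epsilon genes, beside -0.06 over all genes. Of the delta genes, *GstD5*, *GstD7* and *GstD8* had at most 3 counts in 11, 20 and 12 of the 34 libraries. The delta medians, here and below, therefore rest partly on few counts.

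*GstD2*, a delta enzyme of the 3R array, had the largest change. In HFD-ALF it lay at 5.71 CPM in the lowest library, 10.6 at the median and 38.7 in the highest, against 0.536, 1.56 and 2.15 CPM in WT-ALF. Every HFD-ALF library was above every WT-ALF library, and the log2 fold change was 3.34 ± 0.46 (SE, adjusted p = 2.28e-05). *GstD5*, in the same array beyond *GstD3* and *GstD4*, was much lower in level, at 0.749 to 5.61 CPM in HFD-ALF against 0 to 0.700 CPM in WT-ALF. It had 0 to 4 counts per library in WT-ALF and 8 to 75 in HFD-ALF, so its fold rests on few counts. The log2 fold change was 3.27 ± 0.56 (adjusted p = 0.000311).

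*GstE1*, the first plus-strand gene of the 2R array, lay at 29.8, 65.9 and 95.7 CPM (lowest, median, highest) in HFD-ALF, against 15.6, 22.4 and 32.2 CPM in WT-ALF. The groups overlapped only through HFD-ALF ZT11, and the log2 fold change was 1.49 ± 0.29 (adjusted p = 0.00095). *GstE7*, further along the same array, averaged 43.8 ± 21.5 CPM in HFD-ALF and 19.96 ± 8.42 CPM in WT-ALF (SD, n = 6 each). The groups overlapped, and its log2 fold change was 1.14 (adjusted p = 0.0146). *GstD10* and *GstD3* rose by log2 fold changes of 1.69 and 0.81 (adjusted p = 0.0257 and 0.0337), also with overlap.

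HFD-ALF ZT3 was the highest HFD-ALF library for *GstD2*, *GstD3*, *GstD5*, *GstD10*, *GstE7* and *GstE8*. Without it 5 GSTs were called, namely *GstD2*, *GstD5*, *GstE1*, *GstE10* and *GstO1*, and *GstD2* kept a log2 fold change of 2.83. A fit to the HFD-ALF and WT-ALF libraries alone called 4, *GstD1*, *GstD2*, *GstE1* and *GstE10*. Requiring at least 10 counts in every library, which takes *GstD2*, *GstD5*, *GstD10* and *GstE10* out of the test, also called 4, *GstD1*, *GstD3*, *GstE1* and *GstE7*.

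Markers of other cell types moved with this comparison. HFD-ALF ZT3 had the highest summed neuron markers, 652 CPM. Of the 6 neuron markers, 5 were higher in HFD-ALF, with sums of 136 to 652 CPM, against 97.1 to 176 CPM in WT-ALF, and none was at 0. Of the 6 haemocyte markers, 1 was called lower and 5 were at least 20% lower at an unadjusted p of at most 0.05, with sums of 502 to 820 CPM in HFD-ALF, against 663 to 1130 CPM in WT-ALF. Called lower were also 1 of 8 fat body markers, with sums of 14600 to 29500 CPM in HFD-ALF, against 29000 to 49100 CPM in WT-ALF, and 2 of the 3 ovary markers that could be tested, with sums of 1.41 to 4.17 CPM, against 4.1 to 113 CPM. Over the 34 libraries the within-group r with the neuron sum was -0.347 for *GstE1*, -0.194 for *GstE7*, -0.14 for *GstD2* and 0.145 for *GstD3*. For *GstD5* and *GstD10* it was -0.0122 and -0.0143. With the haemocyte sum, the r of these genes ran from -0.548 for *GstD2* to -0.083 for *GstD3*. With the ovary sum it ran from -0.113 for *GstD2* to 0.527 for *GstD5*. The part of these markers in the GST results was not tested.

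Among the lower genes, *GstE10*, which is read from the opposite strand beside *GstE1*, lay at 0.673, 1.95 and 7.04 CPM in HFD-ALF, against 5.77, 14.4 and 33.96 CPM in WT-ALF. The groups overlapped through HFD-ALF ZT7, and the log2 fold change was -2.72 ± 0.72 (adjusted p = 0.00998). All 3 Malpighian tubule markers, *Uro*, *Irk3* and *NaPi-T*, were detected, and their summed level moved with *GstE10*: 6.09 to 32.9 CPM in HFD-ALF, against 25.7 to 286 CPM in WT-ALF, with 2 of 3 called lower. As a description, *GstE10* and that sum had an r of 0.852 over the 34 libraries after centring each group, and the next GST, *GstO1*, had 0.353. The part of tubule RNA in the *GstE10* result was not tested. *GstO1* and *GstE13* changed less, by log2 fold changes of -0.49 and -0.34 (adjusted p = 0.0237 and 0.043).

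Under TRF the diet comparison called fewer members. In HFD-TRF against WT-TRF, 1 of 30 GSTs was higher (background 5.73%) and 2 were lower (background 4.74%). *GstE1* lay at 35.02, 61.5 and 81.9 CPM in HFD-TRF, against 57.1, 13.9, 16.4, 27.5 and 15.6 CPM in WT-TRF at ZT3, ZT7, ZT15, ZT19 and ZT23. Every HFD-TRF library lay above every WT-TRF library other than ZT3, and the log2 fold change was 1.21 ± 0.31 (adjusted p = 0.0104). Beside HFD-ALF against WT-ALF, *GstE1* and *GstE13* were called in the same direction under both regimens.

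*GstS1*, the sigma enzyme, lay at 157, 183 and 253 CPM in HFD-TRF, against 232, 356, 275, 318 and 319 CPM in WT-TRF. The groups overlapped through 1 library of each, and the log2 fold change was -0.66 ± 0.21 (adjusted p = 0.0358). *GstE13*, an epsilon gene outside the array, averaged 8.96 ± 1.35 CPM in HFD-TRF and 12.2 ± 1.68 CPM in WT-TRF (SD, n = 6 and 5), a log2 fold change of -0.44 (adjusted p = 0.019). Without WT-TRF ZT7, WT-TRF ZT23 or HFD-TRF ZT7, only *GstE1* remained called. *GstS1* also lost its call without WT-TRF ZT15 or ZT19, or HFD-TRF ZT3, ZT15 or ZT19, and *GstE13* without WT-TRF ZT19. A fit to the HFD-TRF and WT-TRF libraries alone called only *GstS1*, and DESeq2 called 5 GSTs. Of the flight muscle markers, 2 of 8 were lower, with sums of 15500 to 25000 CPM in HFD-TRF, against 19100 to 30300 CPM in WT-TRF, and *GstS1* had a within-group r of 0.43 with that sum. Called lower were also 1 of 6 haemocyte markers, with sums of 440 to 1040 CPM in HFD-TRF, against 783 to 1060 CPM in WT-TRF, and 1 of 8 fat body markers, with sums of 11600 to 46700 CPM, against 34600 to 56900 CPM. The same held for 1 of 3 tubule markers, with sums of 4.05 to 33.2 CPM in HFD-TRF, against 13.4 to 153 CPM in WT-TRF. *GstS1* had a within-group r of 0.266 with the haemocyte and 0.295 with the fat body sum, and *GstE13* had -0.0473 and 0.255. The part of these markers in the results was not tested. *GstD8* had the largest log2 fold change, 3.79 ± 1.37, but was not called (adjusted p = 0.0713), and its highest library was HFD-TRF ZT15 at 14.7 CPM.

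**Figure D2:**
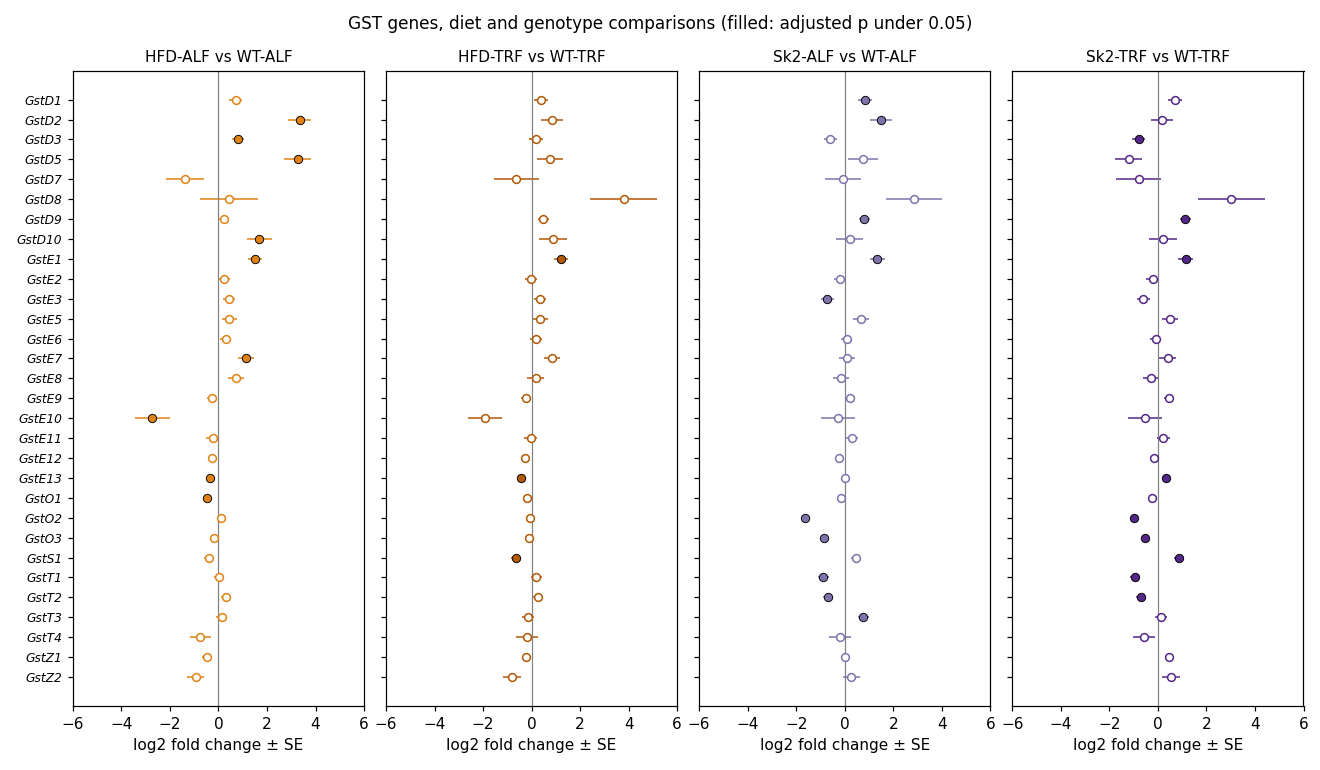
Log2 fold change ± SE of the 30 tested GST genes in HFD-ALF against WT-ALF, HFD-TRF against WT-TRF, *Sk2*-ALF against WT-ALF and *Sk2*-TRF against WT-TRF, filled where the adjusted p is under 0.05. The delta genes *GstD2* and *GstD5* lie near 3.34 and 3.27 in the first panel, and *GstO2*, *GstO3*, *GstT1* and *GstT2* lie to the left in both *Sk2* panels. *GstD5* had at most 4 counts in a WT-ALF library.

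The genotype comparisons called members that overlapped in part with those of the diet comparisons. Under ALF *GstE1* and *GstD2* were called higher in both. Under TRF *GstE1* was called higher in both, and *GstS1* and *GstE13* were called in opposite directions. In *Sk2*-ALF against WT-ALF, 5 of 30 GSTs were higher (background 10.2%) and 5 lower (background 12.7%). In *Sk2*-TRF against WT-TRF, 4 were higher (background 12.3%) and 5 lower (background 12.7%). Called in the same direction under both regimens were 6 genes: *GstO2*, *GstO3*, *GstT1* and *GstT2* were lower, and *GstE1* and *GstD9* were higher. Under ALF the median log2 fold change was 0.77 over the 8 delta genes and -0.85 over the 3 omega genes, beside -0.00435 over all genes, and under TRF 0.20 and -0.53, beside -0.05. These comparisons use different libraries, but the WT-ALF and WT-TRF libraries in them are those of the diet comparisons too.

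*GstO2*, an omega enzyme, had the smallest p-values. Its levels were 96.9, 95.4, 99.1, 112 and 105 CPM in *Sk2*-ALF at ZT3, ZT7, ZT11, ZT15 and ZT19, against 218, 324 and 441 CPM (lowest, median, highest) in WT-ALF. In *Sk2*-TRF it lay at 102, 114 and 130 CPM, against 216, 230, 232, 202 and 254 CPM in WT-TRF. The *Sk2* libraries lay below all WT libraries under either regimen, with log2 fold changes of -1.63 ± 0.16 (adjusted p = 3.73e-09) and -0.99 ± 0.15 (adjusted p = 1.03e-05).

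*GstO3*, its neighbour, averaged 89.9 ± 9.03 CPM in *Sk2*-ALF and 162 ± 29.1 CPM in WT-ALF (SD, n = 5 and 6), a log2 fold change of -0.85 (adjusted p = 3.51e-05). It averaged 91.4 ± 10.2 CPM in *Sk2*-TRF and 132 ± 27.1 CPM in WT-TRF (SD, n = 6 and 5), a log2 fold change of -0.53 (adjusted p = 0.0049). Neither pair of groups overlapped. As a class, the omega genes summed to 169 ± 13.6 RPKM in *Sk2*-ALF and 374 ± 67.0 RPKM in WT-ALF, and to 177 ± 17.1 RPKM in *Sk2*-TRF and 289 ± 28.2 RPKM in WT-TRF. *GstO1*, the third omega gene, was not called, at log2 fold changes of -0.16 ± 0.16 under ALF and -0.23 ± 0.16 under TRF.

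The theta pair moved together. *GstT1* averaged 36.3 ± 11.9 CPM in *Sk2*-ALF and 66.8 ± 18.1 CPM in WT-ALF (log2 fold change -0.88, adjusted p = 0.00282), and 32.8 ± 7.98 CPM in *Sk2*-TRF and 62.7 ± 16.2 CPM in WT-TRF (-0.93, adjusted p = 0.00148). *GstT2* was lower by log2 fold changes of -0.69 under ALF and -0.69 under TRF (adjusted p = 0.0169 and 0.0158). *GstT3*, on X, went the other way under ALF with a log2 fold change of 0.77 (adjusted p = 0.0197), and *GstT4* was not called in either.

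Flight muscle markers also moved with genotype. Their sum was 10300 to 16200 CPM in *Sk2*-ALF, against 13700 to 32200 CPM in WT-ALF, with 4 of 8 called lower and none at 0, and 10300 to 17400 CPM in *Sk2*-TRF, against 19100 to 30300 CPM in WT-TRF, with 2 called lower and 1 higher. Over the 34 libraries the within-group r with that sum was 0.704 for *GstT1* and 0.645 for *GstT2*, and 0.543 for *GstD9*, 0.453 for *GstO3* and 0.071 for *GstO2*. Of other cell types, 1 of 6 haemocyte and 1 of 9 midgut markers were called lower in *Sk2*-ALF, and 1 haemocyte marker higher and 1 lower in *Sk2*-TRF. The part of this in the results was not tested.

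*GstE1* was higher in *Sk2* flies as on the high-fat diet, at 57.4, 53.0, 74.6, 56.0 and 46.5 CPM in *Sk2*-ALF at ZT3 to ZT19, against 15.6, 22.4 and 32.2 CPM in WT-ALF (lowest, median, highest). No library overlapped, and the log2 fold change was 1.34 ± 0.30 (adjusted p = 0.00121). Under TRF it was 1.15 ± 0.30 (adjusted p = 0.00584), at 50.7, 52.8 and 73.2 CPM in *Sk2*-TRF against the WT-TRF values given above. WT-TRF ZT3 was the only WT-TRF library within the *Sk2*-TRF reach. The HFD and *Sk2* results share their WT libraries.

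*GstD9*, a delta gene on the minus strand, lay at 81.3, 78.4, 87.7, 70.7 and 61.2 CPM in *Sk2*-ALF, against 32.9, 43.6 and 53.8 CPM in WT-ALF. In *Sk2*-TRF it lay at 47.9, 55.7 and 82.1 CPM, against 37.2, 17.5, 32.6, 27.5 and 22.6 CPM in WT-TRF. The groups did not overlap under either regimen, and the log2 fold changes were 0.81 ± 0.22 (adjusted p = 0.00695) and 1.14 ± 0.23 (adjusted p = 0.000369).

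Further calls were made under 1 regimen, and the difference between regimens was not called for any of them. Under ALF, *GstD2* was higher, at 6.72, 3.88, 3.69, 3.47 and 4.01 CPM in *Sk2*-ALF against 0.536, 1.56 and 2.15 CPM in WT-ALF (log2 fold change 1.502, adjusted p = 0.0159, 0.0563 without *Sk2*-ALF ZT3). *GstD1* was higher by 0.84 and *GstE3* was lower by a log2 fold change of -0.71 (adjusted p = 0.0331 and 0.0461). *GstD1* averaged 428 ± 111 CPM in *Sk2*-ALF and 239 ± 51.3 CPM in WT-ALF (SD, n = 5 and 6). Without *Sk2*-ALF ZT3, 6 of the 10 genes stayed called, and *GstD1*, *GstD2*, *GstE3* and *GstT2* did not.

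Under TRF, *GstS1* averaged 548 ± 125 CPM in *Sk2*-TRF and 300 ± 47.8 CPM in WT-TRF (SD, n = 6 and 5), without overlap, a log2 fold change of 0.87 ± 0.21 (adjusted p = 0.00271). Under ALF it averaged 490 ± 37.4 CPM in *Sk2*-ALF and 353 ± 62.5 CPM in WT-ALF, also without overlap, and was not called (log2 fold change 0.48, adjusted p = 0.097). *GstE13* was higher by a log2 fold change of 0.35 and *GstD3* lower by -0.79 in *Sk2*-TRF (adjusted p = 0.034 and 0.0334).

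Across the 4 diet and genotype comparisons 18 of the 30 tested GSTs were called at least once (background 47.4%), and 12 in none. Those 12 include the highest epsilon gene *GstE12*, *GstT4*, *GstE6*, *GstE8*, *GstE9* and both zeta genes. *GstE12* lay at 240 to 440 CPM in HFD-ALF, 262 to 453 in HFD-TRF, 299 to 401 in *Sk2*-ALF and 316 to 424 in *Sk2*-TRF, against 254 to 495 CPM in WT-ALF and 343 to 595 in WT-TRF. *GstT4* spread widely within groups, for example 32.1 to 200.5 CPM in WT-ALF. *GstZ1* lay at 9.82 to 18.03 CPM in HFD-ALF and 13.96 to 21.7 in *Sk2*-ALF, against 13.5 to 23.8 CPM in WT-ALF.

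**Figure D3:**
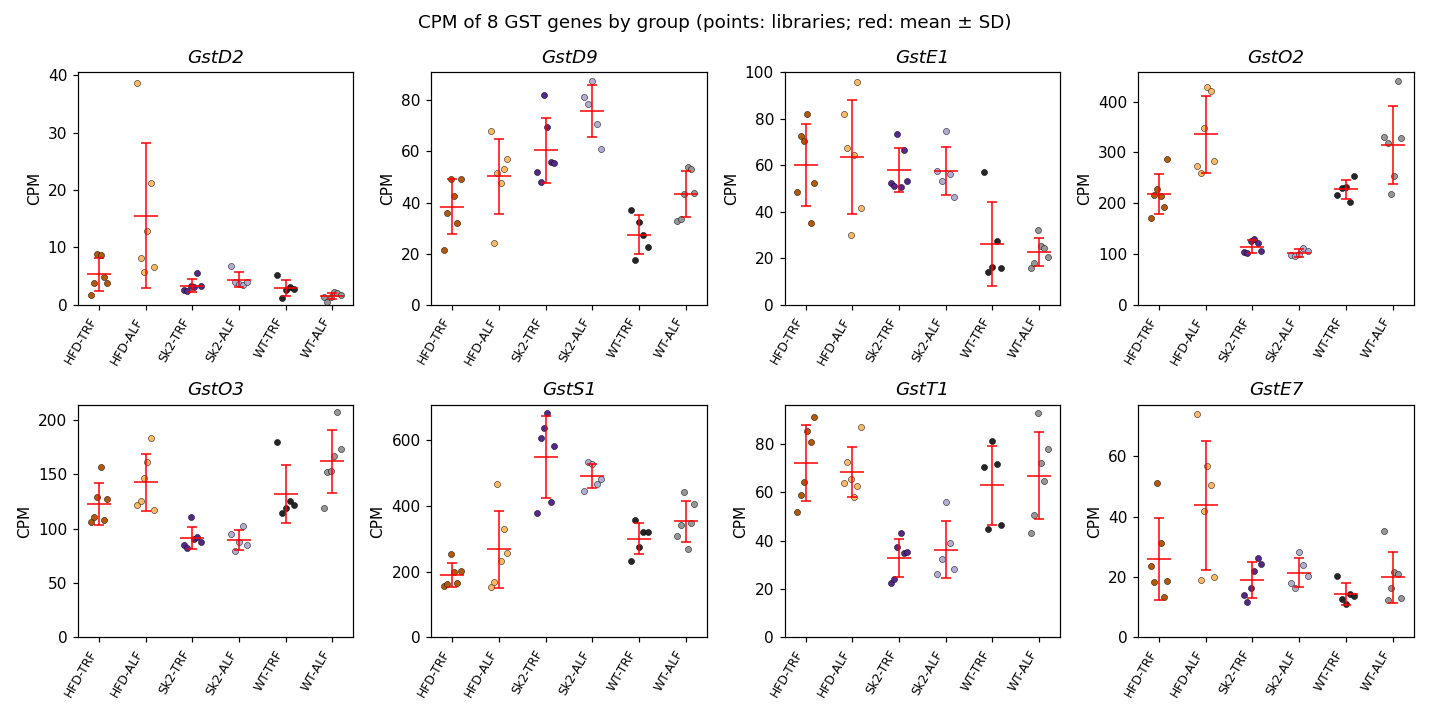
CPM of *GstD2*, *GstD9*, *GstE1*, *GstO2*, *GstO3*, *GstS1*, *GstT1* and *GstE7* in each library (points) of HFD-TRF, HFD-ALF, *Sk2*-TRF, *Sk2*-ALF, WT-TRF and WT-ALF flies, with the mean ± SD in red. For *GstO2* all *Sk2* libraries lie at 95.4 to 130 CPM, below the lowest WT library.

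The feeding regimen was compared within each model. At an adjusted p under 0.05 edgeR called no GST in TRF against ALF, in HFD flies (background 0.06%), *Sk2* flies (0.08%) or WT flies (0%). At an unadjusted p under 0.05 there were 8 GSTs in HFD (background 14%), 2 in *Sk2* (8.35%) and 3 in WT (7.74%), and DESeq2 called *GstO2* and *GstD2* in HFD and 0 in the others. In HFD, edgeR called *GstO2* without WT-ALF ZT11, WT-ALF ZT19 or HFD-TRF ZT23 (1 member each), and *GstO2* and *GstD2* without HFD-ALF ZT7. The values below therefore use the weaker rule of the study, a level at least 25% higher or 20% lower with an unadjusted p of at most 0.05, which is not corrected for the number of genes.

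By that rule 7 of 30 GSTs were lower in HFD-TRF than in HFD-ALF (background 7.32%) and 1 was higher (background 4.02%). The median log2 fold change was -0.52 over the 8 delta and -0.19 over the 12 epsilon genes, beside 0.03 over all genes. *GstO2* had the smallest p. It lay at 171, 216 and 286 CPM in HFD-TRF, against 259, 315 and 429 CPM in HFD-ALF, and only HFD-TRF ZT23 reached into the HFD-ALF values. The log2 fold change was -0.62 ± 0.14 (unadjusted p = 0.000125, adjusted p = 0.0835). *GstD2* lay at 1.73, 4.33 and 8.80 CPM in HFD-TRF, against 5.71, 10.6 and 38.7 CPM in HFD-ALF, with overlap, a log2 fold change of -1.57 ± 0.41 (adjusted p = 0.141).

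*GstS1* averaged 190 ± 36.6 CPM in HFD-TRF and 267 ± 116 CPM in HFD-ALF (log2 fold change -0.49). *GstE7* and *GstE8*, which adjoin on 2R, had log2 fold changes of -0.75 and -0.69, and averaged 26.1 ± 13.6 and 13.7 ± 4.54 CPM in HFD-TRF, against 43.8 ± 21.5 and 22.0 ± 8.31 CPM in HFD-ALF (SD, n = 6 each). *GstD5* and *GstD10* had -1.23 and -1.59, and *GstD8* had 2.26, set by HFD-TRF ZT15. Without HFD-ALF ZT3, 5 genes passed, and *GstE7*, *GstE8* and *GstD5* did not. *GstE7* also fell short without HFD-ALF ZT15 or HFD-TRF ZT7, ZT19 or ZT23, *GstE8* without HFD-ALF ZT15 or ZT19 or HFD-TRF ZT3, ZT7, ZT19 or ZT23, and *GstS1* without HFD-ALF ZT11. A fit to the HFD libraries alone left 5 past the rule, *GstD2*, *GstD5*, *GstD10*, *GstE8* and *GstO2*.

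The neuron marker sum was 80.8 to 298 CPM in HFD-TRF, against 136 to 652 CPM in HFD-ALF, and 5 of its 6 genes were lower by the same rule. Its part in the GST values was not tested.

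In WT flies 2 GSTs were lower under TRF (background 3.24%) and 0 higher (background 2.72%). *GstO2* had 216, 230, 232, 202 and 254 CPM in WT-TRF, against 218, 324 and 441 CPM in WT-ALF, and the groups overlapped (log2 fold change -0.47 ± 0.15, adjusted p = 0.386). *GstD9* averaged 27.5 ± 7.81 CPM in WT-TRF and 43.4 ± 9.06 CPM in WT-ALF (SD, n = 5 and 6), a log2 fold change of -0.66 (adjusted p = 0.428). The midgut marker sum was 280 to 1770 CPM in WT-TRF, against 151 to 9300 CPM in WT-ALF, 4 of 9 genes being lower by this rule with none at 0, and its part was not tested. Without WT-ALF ZT3, WT-TRF ZT7, HFD-ALF ZT3 or HFD-ALF ZT11 the count was 4 or 5.

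*Sk2* flies had 1 GST higher under TRF (background 2.79%) and 1 lower (background 3.94%). *GstE13* lay at 13.2, 15.998 and 17.6 CPM in *Sk2*-TRF, against 13.7, 10.8, 10.4, 14.8 and 10.5 CPM in *Sk2*-ALF, with overlap (log2 fold change 0.36, adjusted p = 0.455). It fell short of the rule without *Sk2*-ALF ZT11, *Sk2*-TRF ZT7 or *Sk2*-TRF ZT23. The count was 1 without WT-ALF ZT3, WT-ALF ZT19, *Sk2*-TRF ZT7 or *Sk2*-TRF ZT23, and 4 without *Sk2*-TRF ZT19. *GstD7*, a delta gene at 0.054 to 0.314 CPM in *Sk2*-TRF and 0.060 to 1.36 CPM in *Sk2*-ALF, was the lower one. It had 1 to 8 counts per library in *Sk2*-TRF and 1 to 27 in *Sk2*-ALF, so its fold rests on few counts. *GstO2* was at -0.62 in HFD and -0.47 in WT flies and at 0.17 ± 0.15 in *Sk2* flies, where its level was lowest.

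**Figure D4:**
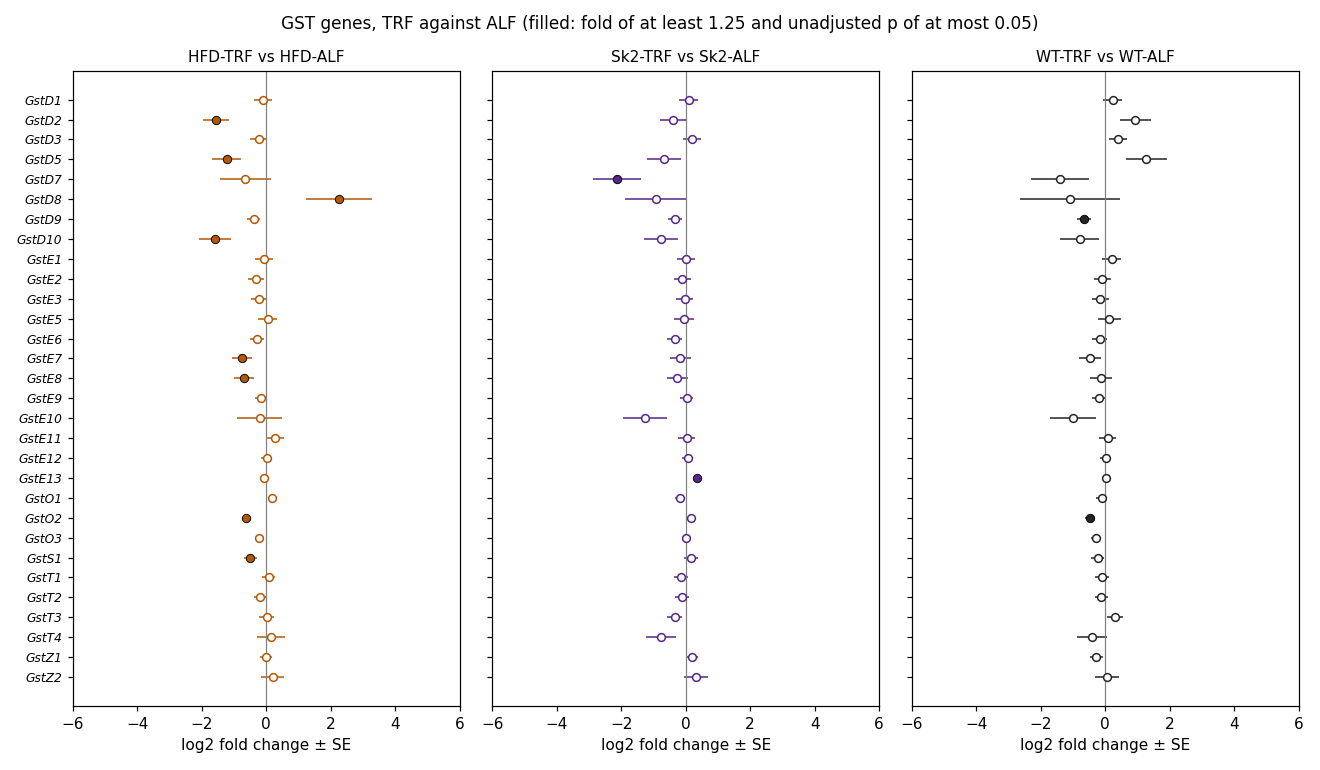
Log2 fold change ± SE of the 30 tested GST genes in HFD-TRF against HFD-ALF, *Sk2*-TRF against *Sk2*-ALF and WT-TRF against WT-ALF, filled where the level was at least 25% higher or 20% lower with an unadjusted p of at most 0.05. In HFD flies 8 genes are filled, in *Sk2* flies 2 and in WT flies 2, and no gene has an adjusted p under 0.05.

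Whether the TRF effect differed between models was tested directly. edgeR called no GST for HFD against WT (background 0%), *Sk2* against WT (0.01%) or *Sk2* against HFD (0.04%). At an unadjusted p under 0.05 there were 2 GSTs for HFD against WT (background 7.98%), 3 for *Sk2* against WT (6.88%) and 4 for *Sk2* against HFD (12.5%), and DESeq2 called only *GstO2*, for *Sk2* against HFD. The difference in log2 fold change for *GstO2* was 0.79 ± 0.21 between *Sk2* and HFD (adjusted p = 0.169), and for *GstD2* -2.51 ± 0.62 between HFD and WT (adjusted p = 0.478).

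For time of day, a 24-h cosine shared by the 6 groups was called for *GstZ2* alone of the 30 GSTs (background 1.78%). *GstZ2*, which adjoins *GstZ1*, had an amplitude of 0.56 on the log2 scale and a fitted peak at ZT22.1 (adjusted p = 0.0323). From ZT3 to ZT23 it read 9.06, 2.11, 3.34, 4.52, 6.17 and 4.90 CPM in HFD-TRF and 4.63, 2.18, 1.41, 2.39, 8.97 and 6.62 CPM in HFD-ALF. In *Sk2*-TRF it read 13.1, 9.57, 12.2, 13.4, 17.6 and 10.2 CPM, and in WT-ALF 8.75, 4.83, 7.22, 5.45, 8.01 and 16.1 CPM. *Sk2*-ALF read 16.3, 6.80, 9.12, 10.2 and 8.46 CPM from ZT3 to ZT19, and WT-TRF 8.47, 6.97, 8.86, 9.67 and 10.1 CPM at ZT3, ZT7, ZT15, ZT19 and ZT23.

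Its ZT7 library was the lowest of the group in 5 of the 6 groups and ZT11 in HFD-ALF, and with 1 library per time and group the pattern has no replicate within a group. The call was lost without WT-ALF ZT23, HFD-ALF ZT11, HFD-ALF ZT23 or HFD-TRF ZT11. No GST was called with time as a 6-level factor, with day set against night, or in ALF or TRF libraries alone, where *GstZ2* had adjusted p of 0.425 and 0.552. *GstE9* came next, with an amplitude of 0.26 and a peak near ZT0.45 (adjusted p = 0.11). No GST had a time pattern that edgeR called different between TRF and ALF (background 0%), 2 had an unadjusted p under 0.05 (background 3.59%), and DESeq2 called 0.

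**Figure D5:**
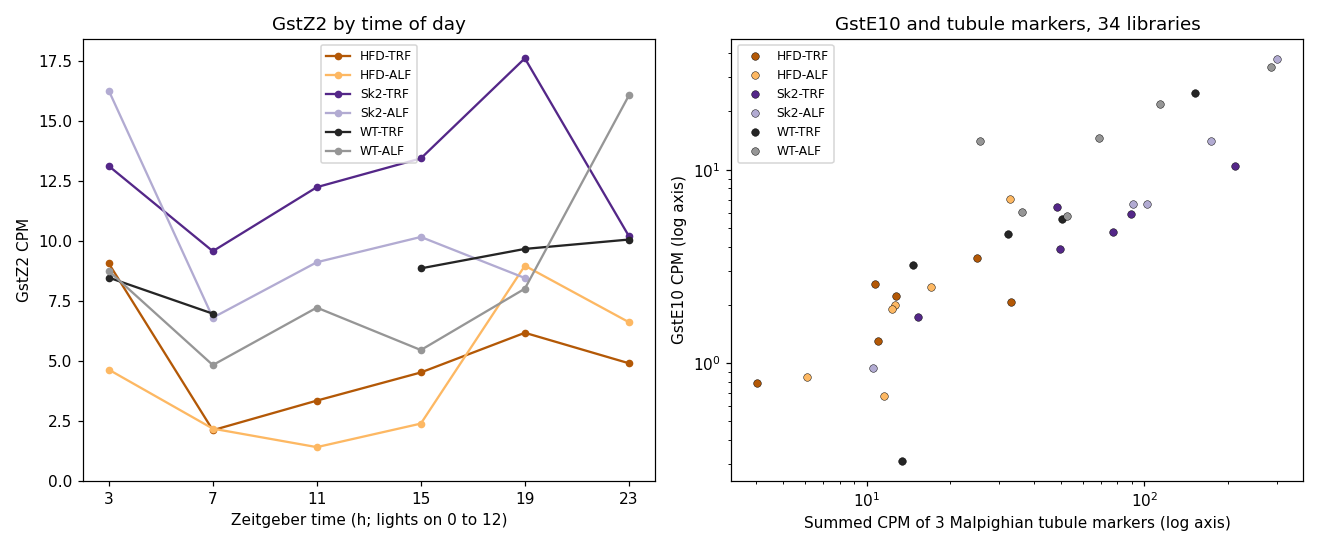
Left, *GstZ2* CPM against zeitgeber time (h) in HFD-TRF, HFD-ALF, *Sk2*-TRF, *Sk2*-ALF, WT-TRF and WT-ALF libraries, with 1 library per point. Right, *GstE10* CPM against the summed CPM of 3 Malpighian tubule markers in the 34 libraries (both axes log), where the within-group r was 0.852.

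Some GSTs varied together from library to library. As a description over the 34 libraries, with each group centred and all genes sharing library depth, the closest pair was *GstT1* and *GstT2* (r = 0.923). *GstE6*, *GstE7* and *GstE8*, neighbours on 2R, followed at 0.827 for *GstE6* with *GstE7* and 0.764 and 0.758 for *GstE8* with *GstE6* and *GstE7*. Likeness was not bound to position, since *GstD1* (3R), *GstO3* (3L) and *GstE12* (2R) had r of 0.754 to 0.805 with each other. *GstO2* was most like *GstO3* (0.497), *GstE1* most like *GstE3* (0.693), *GstD2* most like *GstE3* (0.668) and *GstD9* most like *GstD3* (0.71). The median r was 0.299 over the 28 delta pairs and 0.123 over the 66 epsilon pairs, beside 0.0971 over all 435 pairs. Against the midgut marker sum, *GstT4*, *GstD8* and *GstE8* had r of 0.66, 0.652 and 0.61. *GstD1*, *GstO3* and *GstE12* had -0.514, -0.567 and -0.583 with the neuron sum, and -0.477, -0.39 and -0.29 with the haemocyte sum. With the fat body sum they had 0.247, 0.183 and 0.527. The part of these markers in the likeness between GSTs was not tested.

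Of 16 other genes of glutathione handling, 12 could be tested. The 2 glutathione synthetase genes have identical exons in the table and were listed at 0. Reads there cannot be assigned to 1 gene, so this 0 is not read as lack of expression. *Trxr-2* was also listed at 0, and *se*, the sepia gene next to *GstO2*, was too low. Higher in HFD flies were *Ggt-1*, which breaks down glutathione outside the cell, and *Keap1*, the inhibitor of the stress factor encoded by *cnc*. These were 2 of the 12 under ALF (background 9.42%) and 2 under TRF (background 5.73%). *Ggt-1* averaged 16.8 ± 4.31 CPM in HFD-ALF and 8.92 ± 3.85 CPM in WT-ALF, and 28.02 ± 6.20 CPM in HFD-TRF and 10.2 ± 3.01 CPM in WT-TRF (adjusted p = 0.025 and 0.0024). *Keap1* rose by log2 fold changes of 0.84 and 0.75 (adjusted p = 0.00022 and 0.00137).

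In *Sk2*-ALF against WT-ALF 3 of the 12 were higher (background 10.2%): *Ggt-1*, *Mgstl* (the microsomal GST) and *MRP*, an exporter of glutathione conjugates. In *Sk2*-TRF against WT-TRF only *MRP* was higher (background 12.3%), with a log2 fold change of 0.48 (adjusted p = 0.00461). None of the 12 was called lower in these 4 comparisons. The background was 7.17% for the diet under ALF, 4.74% under TRF, and 12.7% for the genotype under each regimen. For TRF against ALF none was called in any model (background 0.06% in HFD, 0.08% in *Sk2* and 0% in WT flies).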

How the data were processed

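RNA from pooled IFM of female flies was sequenced as single 50-base reads. The authors aligned the reads to dm6 with STAR and counted uniquely aligned, strand-specific exon reads per gene with featureCounts 1.5.0-p1. The deposited values are raw counts, with the exon length of each gene, and 0 columns lacked a sample. The STAR version in the submitters' processing notes, 2.5.3a, differs from that in the methods.

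Genes were filtered with filterByExpr and scaled by TMM, which gave CPM and RPKM, and tested with a quasi-likelihood fit of 6 group means (edgeR 4.0.16, R 4.3.3), with cosine and sine terms for time. SE is the absolute log2 fold change over the root of F. In these libraries 3 counts equal 0.0978 to 0.901 CPM. No source gives separate cohorts within a group, so p-values measure the spread between libraries of different times.

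Genes were picked as the 3 largest called changes per diet or genotype comparison and all genes past the TRF rule (mean count of at least 50). Also picked were the highest gene per class and length, and genes called for time. Values were given by library or as a mean or range, for some genes in only part of the groups. Other members are named with values after these were seen. Members and lists were chosen with earlier results of these data known. All 35 members matched the reference annotation at the same positions. Scripts were tested on simulated data. Other libraries, filters, scalings, time terms, a time block, DESeq2 1.42.0 and leaving out each library were tried. No sequences were used here.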

Additional observations from a re-analysis of the deposited data

Results flagged for a closer look

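In 12 of 90 groups of libraries examined for the 15 GSTs described by library, 1 library stood far from the rest of its group. The gap rule used picks about 1 group in 20 where values are independent and normally spread. CPM need not be normally spread and the GSTs share libraries, so the 12 are not read as an excess over that rate. WT-TRF ZT3 stood apart for *GstD1* (488.4 CPM, others 209.6 to 242.3) and *GstO3* (179.9 CPM, others 114.2 to 125.1). *Sk2*-TRF ZT11 stood apart for the same genes, with *GstD1* at 903.4 CPM (others 333.7 to 404.5) and *GstO3* at 110.9 CPM (others 82.28 to 92.05). *GstD2* was high in *Sk2*-ALF ZT3 (6.72 CPM, others 3.474 to 4.015) and *Sk2*-TRF ZT19 (5.533 CPM, others 2.326 to 3.291), and *GstE8* in *Sk2*-TRF ZT19 (18.99 CPM, others 5.031 to 10.06).

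*GstE10* was high at ZT7 in HFD-ALF (7.04 CPM, others 0.6728 to 2.474) and in WT-TRF (24.91 CPM, others 0.3119 to 5.563), the libraries with the highest tubule marker sums of their groups. *GstZ1* was high in *Sk2*-TRF ZT15 (29.82 CPM, others 15.86 to 19.78) and *GstZ2* in WT-ALF ZT23 (16.07 CPM, others 4.826 to 8.747), while *GstE12* was low in WT-ALF ZT3 (254.2 CPM, others 423.8 to 494.8).

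The 2 libraries left out by the study lay outside the 34 used for some GSTs, on a scaling over 36 libraries. Of the 30 tested members, WT-TRF ZT11 was above all 34 for 3 and below all 34 for 7, and *Sk2*-ALF ZT23 was above for 2 and below for 3. In WT-TRF ZT11 *GstO1* was at 42 CPM, *GstE13* at 22.81 CPM and *GstD3* at 17.95 CPM, and in *Sk2*-ALF ZT23 *GstO1* was at 24.74 CPM and *GstE13* at 18.23 CPM. The 34 libraries spanned 5.187 to 11.12 CPM for *GstO1*, 7.361 to 17.96 for *GstE13* and 1.586 to 12.79 for *GstD3*. The members below the 34 in WT-TRF ZT11 were *GstD9*, *GstE1*, *GstE2*, *GstE9*, *GstE12*, *GstO3* and *GstZ2*, for example *GstE9* at 30.45 CPM (lowest of the 34, 59.53) and *GstE1* at 9.164 CPM (14.38). In *Sk2*-ALF ZT23 they were *GstE2*, *GstO2* and *GstO3*, with *GstO2* at 87.05 CPM (97.21).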

How the results depend on the processing

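No direction reversed under any alternative, and 14 of 21 named values kept their side of the threshold under every setting other than leaving out a library. For the alternative settings, here and above, the shares over all genes are not given. Shifts in the GST counts between settings are therefore not read as particular to GSTs. With all 36 libraries, 4 GSTs passed the TRF rule in WT and 0 in *Sk2* flies (2 each in the 34). Fitting only the groups compared called 4 GSTs for HFD-ALF against WT-ALF (9 in the full fit) and 1 for HFD-TRF against WT-TRF (3), and left 5 past the TRF rule in HFD (8). With at least 10 counts in every library these were 4 for HFD-ALF against WT-ALF, 5 past the TRF rule in HFD and 1 in *Sk2*, where no filter gave 4. This filter tests fewer genes, and otherwise the cause was not tested. DESeq2 called 5 GSTs for HFD-TRF against WT-TRF, 2 for HFD-TRF against HFD-ALF, 1 for the TRF effect in *Sk2* against HFD and 2 for time of day. Time of day called 0 with a 6-level factor, day against night, ALF libraries alone or TRF libraries alone.

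Leaving out each library in turn gave 5 to 10 GSTs called for HFD-ALF and 1 to 3 for HFD-TRF, 6 to 11 for *Sk2*-ALF and 7 to 10 for *Sk2*-TRF, each against WT. TRF against ALF gave 0 to 2 called in HFD and 0 in the others, and past the TRF rule 5 to 9 in HFD, 1 to 4 in *Sk2* and 2 to 5 in WT. Time of day gave 0 to 1.

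Times were shared across groups, but same-time libraries did not deviate together in every pair (r -0.33 to 0.45). With time as a replicate block, 10 GSTs were called for the diet under ALF and 3 under TRF, 11 for the genotype under ALF and 11 under TRF, 0 for each TRF comparison and interaction, and 7, 2 and 3 passed the TRF rule in HFD, *Sk2* and WT. Members with under 10 counts in every library but a few, such as *GstD6*, are limited by depth.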
